A study of Mus musculus with 6 samples.

Results

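The change over 24 h in low-serum medium was taken in C2AS12 cells (mouse myoblasts of the C2 lineage) as the difference between 3 arrays at 24 h and 3 at 0 h, paired by treatment. All 6 arrays of the series enter this comparison. Every culture had been infected with recombinant adenovirus for p300, a histone acetyltransferase and coactivator of transcription. Adp300wt carried the wild-type protein, Adp300wt + Dox the wild-type protein in the presence of doxycycline, and Adp300mut a mutant protein. Each treatment gave 1 array just before the switch to low-serum differentiation medium and 1 array 24 h later. The mutation and the action of doxycycline in this line are not given in the labels used here, and no group is described as uninfected. Because all 24 h arrays followed the switch, low serum and 24 more hours of culture cannot be told apart. The labels do not say that arrays of a time came from separate experiments, so p-values rest on the spread of the change between the 3 treatments. The test used combines each probe set's own spread with a prior from all probe sets, so a printed SD does not give the p-value by itself.

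Myoblasts divide in medium rich in serum and leave the cell cycle when serum growth factors are withdrawn, after which many of them differentiate and fuse. Muscle and cell cycle genes are the known core of that response. Cells that stop growing also need fewer ribosomes, nucleotides and new mitochondrial proteins, and a drop in serum is sensed by growth factor receptors, nutrient signalling and the lysosome, where autophagy recycles cell contents. The description here is centred on those other families.

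Values are array signals on a linear scale, and changes are log2 of 24 h over 0 h for the same treatment. Of 12422 probe sets other than controls, the 6212 with the higher mean signals were tested with limma, with treatment as a block and Benjamini-Hochberg adjustment. "Rose" and "fell" mean an adjusted p under 0.05. Of the probe sets tested, 450 (7.24%) rose and 559 (9%) fell, in all 16.2%. A gene is represented by its probe set of highest mean signal. Of 4822 genes, 370 (7.67%) rose and 450 (9.33%) fell, in all 17%, and the median change was 0.01. The cell cycle list held 132 of the tested genes, of which 106 fell and 3 rose, with a median change of -1.20. The muscle list held 57, of which 26 rose and 1 fell, with a median of 0.43. Outside both lists calls were even in direction on the scale of the deposited values: among 4633 genes 341 (7.36%) rose and 343 (7.4%) fell. With a scaling to spike-in controls, described below, 88 of these rises and 240 of these falls kept their call. The lists do not hold every mitotic gene: Spdl1 and Pimreg, named below, lie outside them. The median size of a called change was 0.57 in either direction, and 33 of the rises and 46 of the falls were at least 2-fold. The 24 h values lay above all 0 h values for 284 of the 341 and below them for 303 of the 343. Over all genes tested such a separation was seen upwards in 13.1% and downwards in 15.7%.

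The 3 treatments gave changes of like size. At least 2-fold higher at 24 h were 83 genes (1.72%) in the wild-type pair, 71 (1.47%) in the doxycycline pair and 78 (1.62%) in the mutant pair. At least 2-fold lower were 137 (2.84%), 149 (3.09%) and 156 (3.24%) in the same order. In all 3 treatments together, 22 genes (0.456%) were at least 2-fold higher and 82 (1.7%) at least 2-fold lower. Of all genes tested, 52% changed in 1 direction in all 3 treatments, and every called gene did. Across the 4633 genes outside the muscle and cell cycle lists, which are not independent replicates, the changes correlated with Pearson's r = 0.497 between wild type and doxycycline, 0.512 between wild type and mutant and 0.59 between doxycycline and mutant. Each treatment has its own 0 h and 24 h array, so these correlations share no array.

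The arrays agreed in overall signal, with medians of 68.7 to 78.05 and 23.3% to 26.5% of probe sets under the floor of 16.4. The 9 spike-in probe sets (for BioB, BioC, BioDn and CreX) are hybridization controls, so scaling to them does not measure the RNA content of the cells. These controls stood at -0.132 to -0.02 at 0 h (log2 relative to the mean of the arrays). At 24 h they stood at -0.183, 0.132 and 0.233 (wild type, doxycycline, mutant). Scaling to them moved the median change of all probe sets from 0.005 to -0.12, and 141 probe sets then rose and 478 fell. On that scale rises were fewer than falls, so spike-in values are given beside the families below. The actin 3' to 5' ratio, a sign of RNA quality, was 1.303 to 1.335 at 0 h and 1.326, 1.447 and 1.488 at 24 h. Of 9 myoblast markers, 8 were tested and 4 rose, their summed signal going from 2604 to 2937 at 0 h to 3658 to 4132 at 24 h, while Mef2c was under the floor on all arrays. Of 12 macrophage and leukocyte markers 2 were tested and 0 called by limma (1 at an unadjusted p under 0.05), and 8 (among them Ptprc, Itgam and Adgre1) were under the floor on all arrays, and the summed signal was 694 to 785 at 0 h and 566 to 646 at 24 h. In the lists for adipocytes, bone and cartilage, endothelium, epithelium, and neurons and glia, with 0 to 2 markers tested in each, limma called 0, and 0 had an unadjusted p under 0.05. In bulk RNA, fewer cells of a type and less RNA per cell cannot be told apart.

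The fit rests on 3 pairs, so each pair was left out in turn and the spike-in scaling was applied as a further refit. Of the 341 rises outside the muscle and cell cycle lists, 296 kept their call without the wild-type pair, 168 without the doxycycline pair and 124 without the mutant pair. For the 343 falls the counts were 297, 151 and 124. A call is termed firm below where it held in each of these 3 refits and with the spike-in scaling. That was so for 72 of the rises and 98 of the falls, and for 18 and 17 of the 20 largest in each direction. In limma each probe set's variance is combined with a prior from all probe sets, weighted by prior degrees of freedom. These were 6.26 in the main fit, 29.4, 6.65 and 6.25 without the wild-type, doxycycline and mutant pairs, and infinite with the spike-in scaling. An infinite prior sets aside a probe set's own spread between treatments, so the refits are not equal tests of a call.

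The 20 largest rises outside the muscle and cell cycle lists are taken by the kind of product, in no order of size, starting with matrix and lipid transport proteins. Apoe, the lipid carrier apolipoprotein E, read 10.9, 10.3 and 10.2 at 0 h (wild type, doxycycline and mutant, an order kept throughout), all under the floor, and 109.2, 290.4 and 119.6 at 24 h. Its rise is therefore a lower bound, at least 3.25 ± 0.78 on the log2 scale (mean of the 3 treatments; SD, n = 3; limma adjusted p = 0.000631). The doxycycline array had the highest value and the groups did not overlap. Dcn, the matrix proteoglycan decorin, read 777.4, 566.6 and 438.8 at 0 h and 2390.8, 2475.0 and 2369.5 at 24 h, a rise of 2.06 ± 0.41 (adjusted p = 6.71e-05). The 24 h arrays lay within a few percent of each other although the 0 h arrays did not. Ogn, a related small proteoglycan, rose by 1.74 ± 0.35, Sdc2, the membrane proteoglycan syndecan 2, by 1.24 ± 0.40, and Tnc, the matrix glycoprotein tenascin C, by 1.21 ± 0.07. Tnc rose by a like amount in each treatment, yet its groups overlapped, because its level was highest with wild-type p300 at both times (226.9 at 0 h against 186.3 and 274.0 at 24 h with doxycycline and mutant p300). Without the treatment block the call of Tnc was lost (limma adjusted p = 0.129).

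Several of the 20 genes encode enzymes. Adh1, an alcohol dehydrogenase that also acts on retinol, read 83.5, 126.9 and 49.0 at 0 h and 267.2, 316.1 and 293.3 at 24 h, with the mutant array the dimmest at 0 h. Its rise was 1.86 ± 0.65 (adjusted p = 0.00126), the groups were apart, and the mutant array moved most. Aldh1a1, which converts retinaldehyde to retinoic acid, rose by 1.94 ± 1.58 but unevenly, from 40 to 463.7, 18.5 to 69.8 and 32.3 to 41.7. Without the wild-type pair its change was 1.14 (adjusted p = 0.142) and without the doxycycline pair 1.95 (adjusted p = 0.111). Klk1b22, a kallikrein-type serine protease, rose by 1.75 ± 0.05, Cpq, a carboxypeptidase, by 1.40 ± 0.43 and Cp, the copper-binding ferroxidase ceruloplasmin, by 1.29 ± 0.45. The Klk1b22 value comes from a probe set of a type that can match several related genes. Fancc, of the DNA crosslink repair pathway, rose by 1.32 ± 0.72, but without the doxycycline pair its change was 1.14 (adjusted p = 0.0516).

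The 20 also held regulators and signalling proteins. Bcl6, a transcriptional repressor, went from 153.4, 112.3 and 73.6 to 357.1, 212.3 and 322.0, a rise of 1.42 ± 0.63 (adjusted p = 0.0035) with all 24 h values above all 0 h values. Igf2, an autocrine growth factor of differentiating myoblasts, rose by 1.39 ± 0.23 and Sema3c, a secreted guidance cue, by 1.39 ± 0.30. Rin2, a Rab5 exchange factor of endocytosis, read 555.8, 532.2 and 394.4 at 0 h and 1238.7, 1371.2 and 1203.5 at 24 h, a rise of 1.38 ± 0.23 (adjusted p = 0.00011). Both times formed tight, separate groups. Mtss2 rose by 1.53 ± 0.74, Ptprv, a receptor-type tyrosine phosphatase, by 1.22 ± 0.13 and Gpm6b, a membrane glycoprotein, by 1.21 ± 0.46. Tbc1d10a, a Rab GTPase-activating protein, rose by 1.23 ± 0.25, while its other tested probe set changed by -0.26.

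**Figure D1:**
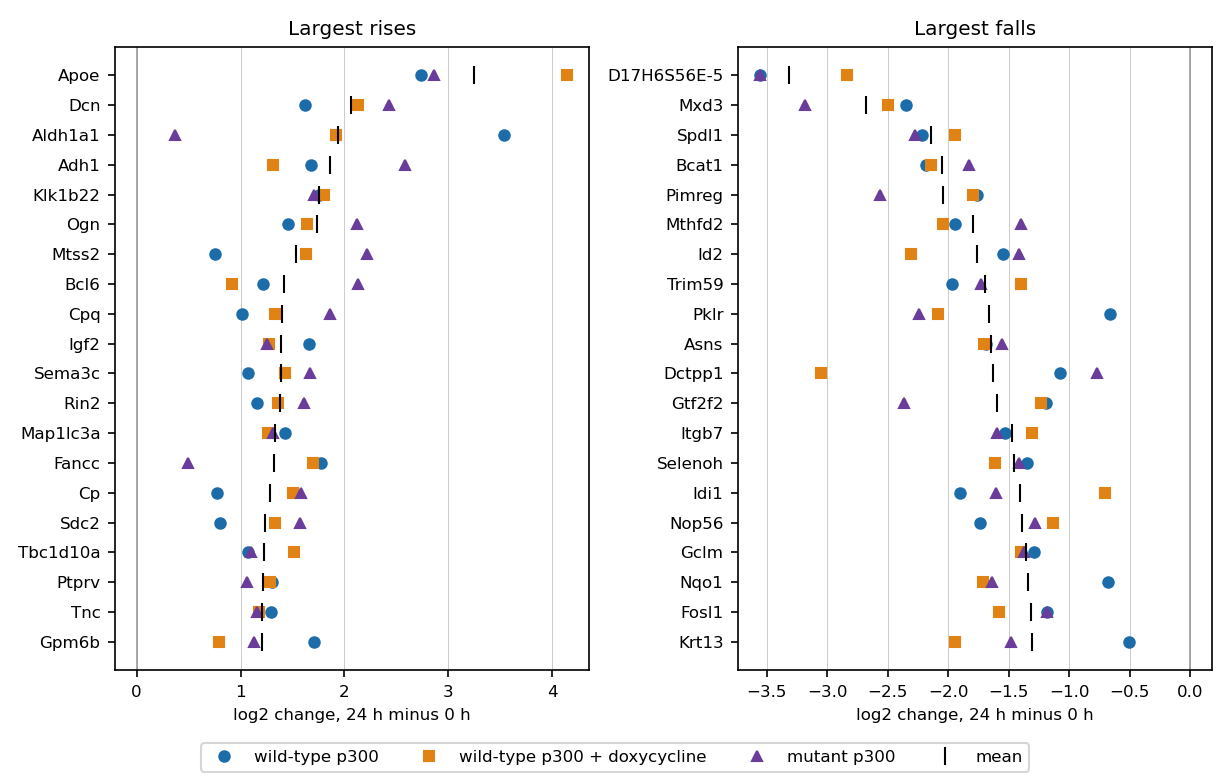
Log2 change from 0 h to 24 h (x axis) of the 20 genes with the largest rise (left) and the 20 with the largest fall (right) outside the muscle and cell cycle lists, 1 point for each treatment and a bar for the mean. Map1lc3a, Tnc and Klk1b22 on the left and Asns and Gclm on the right have 3 points close together, while Aldh1a1 spreads from 0.37 to 3.54 and Dctpp1 from -3.05 to -0.77.

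The 20 largest falls outside the muscle and cell cycle lists are described next. D17H6S56E-5 read 335.6, 435.2 and 468.6 at 0 h and 28.5, 60.8 and 39.9 at 24 h, and fell by 3.32 ± 0.41 (adjusted p = 2.47e-05). The groups were far apart, and the doxycycline array stayed brightest at 24 h. Spdl1, which brings dynein to kinetochores, read 310.5, 305.2 and 266.8 and then 66.9, 79.4 and 55.2, and fell by 2.14 ± 0.18 (adjusted p = 6.71e-05). Pimreg, a mitotic gene, fell by 2.04 ± 0.45. Mxd3, a MAX partner of the MYC network, fell by 2.68 ± 0.44, from 104.1, 144.4 and 154.5 to 20.4, 25.5 and 17.0. Mxd4, another MAX partner, rose by 0.42 (adjusted p = 0.015) and was added after its value was seen. Myc itself lay under the signal filter, at 94.1, 78.3 and 77.3 at 0 h and 93.1, 48.1 and 53.0 at 24 h.

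Asns, Bcat1 and Mthfd2, enzymes of amino acid and one-carbon metabolism, were among these 20 falls. Asns, asparagine synthetase, read 1745.6, 1145.1 and 1407.2 at 0 h and 541.6, 351.6 and 477.8 at 24 h, and fell by 1.65 ± 0.08 (adjusted p = 2.05e-05). Its fall was nearly equal in the 3 treatments although the doxycycline arrays were the dimmest at both times. Bcat1, which transaminates branched-chain amino acids, fell by 2.05 ± 0.20. Mthfd2, the mitochondrial folate enzyme, fell by 1.79 ± 0.35 from 712.9, 660.1 and 801.7 to 185.5, 160.0 and 303.9. Gclm, the regulatory subunit for glutathione synthesis, fell by 1.36 ± 0.05, Nqo1, a quinone reductase, by 1.34 ± 0.58, and Selenoh, a nucleolar selenoprotein, by 1.46 ± 0.14. Selenoh read 1083.8, 1230.5 and 1192.5 at 0 h and 426.0, 402.7 and 446.8 at 24 h, tight groups far apart. Idi1, of the isoprenoid pathway, fell by 1.41 ± 0.62, and Nop56, a core protein of box C/D ribonucleoproteins, by 1.39 ± 0.31. Other firm falls were Id2 (1.76 ± 0.48), an inhibitor of basic helix-loop-helix factors, Trim59 (1.70 ± 0.28), Itgb7 (1.48 ± 0.15), Fosl1 (1.32 ± 0.23), an AP-1 subunit, and Dctpp1 (1.63 ± 1.24), which hydrolyses dCTP. Without the doxycycline pair Dctpp1 changed by -0.92 and kept its call, and its other tested probe set changed by -0.68. Its call was lost without the treatment block (limma adjusted p = 0.107) and without the variance trend (0.0652). In 3 further genes the call was lost without a pair. Without the mutant pair, Gtf2f2, a general transcription factor, changed by -1.22 (adjusted p = 0.0611), Pklr, a pyruvate kinase, by -1.37 (0.08) and the keratin gene Krt13 by -1.23 (0.112). Without the doxycycline pair Pklr changed by -1.45 (adjusted p = 0.0666) and Krt13 by -1.0 (adjusted p = 0.0914).

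The promoter windows of 5 of these genes are printed because the letters in them can be set beside the counts over all genes. The 5 were chosen by hand and not by a rule, so they do not stand for the other genes. Each holds 250 bases before to 50 after an annotated start, from RefSeq on GRCm38.p6, 5′ to 3′ on the gene's strand. Capitals mark matches, on either strand, to any of 6 letter strings: CACGTG (an E-box), CCAAT (the box bound by NF-Y), TTTGAA (the core of cell cycle homology regions), TTTCCCGC (E2F type), TGATGCAA (ATF4 type) and TGACNNNGC (antioxidant element type). None of the 6 strings contains another. The windows are those of Spdl1 (chr11:34833592-34833891, minus strand), Trim59 (chr3:69044693-69044992, minus), Selenoh (chr2:84670659-84670958, minus) and Gclm (chr3:122245307-122245606, plus), which fell, and Adh1 (chr3:138277335-138277634, plus), which rose.
Spdl1: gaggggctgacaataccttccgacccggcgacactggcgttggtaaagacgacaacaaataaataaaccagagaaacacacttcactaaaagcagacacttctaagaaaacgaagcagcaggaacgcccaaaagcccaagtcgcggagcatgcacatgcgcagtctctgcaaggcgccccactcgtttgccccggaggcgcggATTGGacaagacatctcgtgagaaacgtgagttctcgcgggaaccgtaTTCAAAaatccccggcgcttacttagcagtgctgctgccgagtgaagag
Trim59: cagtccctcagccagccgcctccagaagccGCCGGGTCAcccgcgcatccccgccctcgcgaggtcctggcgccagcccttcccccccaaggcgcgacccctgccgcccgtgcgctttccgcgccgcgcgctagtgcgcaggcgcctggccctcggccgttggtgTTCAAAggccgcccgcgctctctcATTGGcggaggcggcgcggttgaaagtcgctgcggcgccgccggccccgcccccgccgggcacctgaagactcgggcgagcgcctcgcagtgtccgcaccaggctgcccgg
Selenoh: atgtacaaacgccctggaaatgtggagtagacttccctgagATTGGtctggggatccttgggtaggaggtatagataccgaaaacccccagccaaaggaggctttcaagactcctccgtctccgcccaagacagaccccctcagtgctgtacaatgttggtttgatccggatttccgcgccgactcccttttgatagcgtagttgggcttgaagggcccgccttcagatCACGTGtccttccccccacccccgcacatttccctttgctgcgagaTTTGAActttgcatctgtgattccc
Gclm: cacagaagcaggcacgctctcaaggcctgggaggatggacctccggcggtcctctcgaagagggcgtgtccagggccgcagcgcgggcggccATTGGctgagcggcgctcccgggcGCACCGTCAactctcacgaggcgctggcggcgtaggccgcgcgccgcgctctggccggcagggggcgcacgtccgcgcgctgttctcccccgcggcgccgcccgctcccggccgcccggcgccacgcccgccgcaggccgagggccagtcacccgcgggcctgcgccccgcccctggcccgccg
Adh1: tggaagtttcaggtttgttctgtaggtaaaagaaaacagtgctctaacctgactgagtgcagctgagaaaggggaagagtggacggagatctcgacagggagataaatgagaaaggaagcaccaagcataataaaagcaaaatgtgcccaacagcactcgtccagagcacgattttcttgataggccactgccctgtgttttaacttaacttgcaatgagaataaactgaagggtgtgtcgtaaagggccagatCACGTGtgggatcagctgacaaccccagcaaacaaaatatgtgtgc
Spdl1 and Trim59, outside the cell cycle list, each held CCAAT and TTTGAA letters in this window, and Selenoh held both and the E-box letters. Gclm held CCAAT and the antioxidant element letters, and Adh1, a gene that rose, the E-box letters alone. Among the other largest rises and falls, the windows of Nqo1, Gtf2f2, Itgb7, Klk1b22, Sema3c, Gpm6b and Tnc held none of the 6 strings. That of Asns held the antioxidant element letters alone. Over all 32851 windows of the table, CCAAT occurred in 37.4%, TTTGAA in 17.9%, CACGTG in 7.15%, TGACNNNGC in 12.4%, TTTCCCGC in 1.07% and TGATGCAA in 0.895%. Of the 4822 genes tested, 3939 had a window, 5102 windows in all.

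Windows of the genes that fell outside the muscle and cell cycle lists held CCAAT in 46.8%, against 37.3% for genes tested and 36.2% for genes that rose. Mitotic genes that are not on the lists, Spdl1 among them, are counted with these falls. Windows of the cell cycle genes that fell held it in 69.5%. The TTTGAA letters were in 12.6% of windows of the falls outside the lists, 11.9% of windows of tested genes and 45.7% of those of cell cycle genes that fell. CACGTG was in 13.5%, 10.6% and 10.5% in the same order, and TGACNNNGC in 17%, 14% and 17.1%. For falls outside the lists, TTTCCCGC was in 2.92% and TGATGCAA in 1.17% of windows, against 2.12% and 0.549% for tested genes. These shares describe letters in 342 windows of falls and are not tests of a factor. A match is not a site, and a gene with several starts counts with several windows.

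Genes for making ribosomes and charging tRNA fell or did not pass the test, with few exceptions. Of 56 tested genes of the nucleolus and ribosome assembly, 10 fell (17.9%) and 1 rose (1.79%), and the median change was -0.19. Over all genes 9.33% fell and 7.67% rose, with a median of 0.01. Nop56 read 329.2, 319.8 and 432.1 at 0 h and 98.8, 145.3 and 176.9 at 24 h, with no overlap. Nhp2, of the box H/ACA particles that modify ribosomal RNA, fell by 0.86 ± 0.08 (adjusted p = 0.000795). Gar1 of the same particle fell by 0.60 ± 0.16 and the methyltransferase fibrillarin, Fbl, by 0.56 ± 0.15. Imp3 rose by 0.38 ± 0.09. Of the 10 falls, 3 kept their call without the doxycycline pair, 3 without the mutant pair and 6 with the spike-in scaling. Among 12 genes of RNA polymerases I and III, Polr3k alone fell (8.33%, below the share over all genes), by 0.62 ± 0.20. Its call was lost when any 1 pair was left out.

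Of 51 translation factor and tRNA synthetase genes 11 fell (21.6%) and 1 rose (1.96%), with a median change of -0.22. Over all genes tested the shares were 9.33% and 7.67%. Of the 19 tRNA synthetase genes 7 fell and 0 rose, with a median of -0.34, and 14 of the 19 changed downwards in all 3 treatments. Vars, for valine, read 663.0, 610.4 and 748.2 at 0 h and 329.7, 293.6 and 403.0 at 24 h, and fell by 0.99 ± 0.08 (adjusted p = 0.000319). Wars, for tryptophan, fell by 0.92 ± 0.10 and Gars, for glycine, by 0.64 ± 0.07. The 3 tested probe sets of Wars ranged from -0.92 to -0.32. Vars, Wars and Gars were each lower at 24 h on every array. The 26 initiation factors had a median of -0.15 with 3 falls (11.5%, near the share over all genes) and 1 rise. Among them Eif1ax, a scanning factor, fell by 0.73 ± 0.21 (second probe set -0.27). The paralogous helicases Eif4a1 and Eif4a2 moved apart, the first falling by 0.39 ± 0.06 and the second rising by 0.50 ± 0.23. Neither call held without the mutant pair. Across the family 8 of the 11 falls kept their call without the doxycycline pair, 5 without the mutant pair and 8 with the spike-in scaling.

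RNA processing genes went the same way. Of 62 genes of splicing and RNA binding, 18 fell (29.0%) and 1 rose (1.61%), against 9.33% and 7.67% of all genes. The median change was -0.27. Srsf3, a splicing factor of the SR family, read 361.7, 361.0 and 366.8 at 0 h and 153.7, 187.9 and 180.3 at 24 h, and fell by 1.07 ± 0.15 (adjusted p = 0.000697). The 0 h arrays were nearly equal and all 24 h arrays lay far below them. Lsm4, of the Sm-like ring on U6 RNA, fell by 1.12 ± 0.18, and Hnrnpd, which binds AU-rich messages, by 0.62 ± 0.06. Clk1, a kinase that phosphorylates SR proteins, rose by 0.57 ± 0.12, from 456.8, 600.4 and 499.9 to 653.3, 844.4 and 815.0. Its groups did not overlap, but the call was lost without the mutant pair and with the spike-in scaling. Among the 18 falls, 11 kept the call without the doxycycline pair, 5 without the mutant pair and 12 with the spike-in scaling.

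Among genes of nuclear transport and the lamina, Ranbp1, Kpna2, Rangap1 and Lbr are also on the cell cycle list. Of 40 genes 13 fell (32.5%) and 1 rose (2.5%), against 9.33% and 7.67% of all genes, with a median of -0.27. Of the 33 that are in no cell cycle list 7 fell (21.2%) and 1 rose (3.03%). Over all genes outside the muscle and cell cycle lists 7.4% fell and 7.36% rose. Ranbp1, a cofactor of the Ran cycle, read 746.9, 775.3 and 875.8 and then 423.9, 345.9 and 413.2, and fell by 1.02 ± 0.18 (adjusted p = 0.000412). The importin Kpna2 fell by 2.26 ± 0.11, the activator of Ran hydrolysis Rangap1 by 1.59 ± 0.21 and the main exportin Xpo1 by 1.06 ± 0.47. The nuclear pore genes Nup85 and Nup107 fell by 0.82 ± 0.12 and 0.80 ± 0.25, and Lbr, the lamin B receptor, by 0.99 ± 0.14. Tnpo1, transportin, rose by 0.30 ± 0.08, and its call was lost when any 1 pair was left out. Of the 13 falls 11 kept their call without the doxycycline pair, 9 without the mutant pair and 13 with the spike-in scaling.

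Nucleotide and one-carbon synthesis had the lowest median of the 24 families, at -0.43. Of 30 genes, 11 fell (36.7%) and 1 rose (3.33%), against 9.33% and 7.67% of all genes. In the folate, serine and methionine cycle 4 of 6 fell, with a median of -0.96: besides Mthfd2, Ahcy, which clears S-adenosylhomocysteine, fell by 1.15 ± 0.38, the serine synthesis enzymes Psat1 by 1.08 ± 0.62 and Psph by 0.83 ± 0.18. Psat1 fell from 2156.4, 1522.2 and 1771.3 to 1631.9, 499.0 and 754.0, and the wild-type array at 24 h lay within the 0 h range. Among 11 purine genes 4 fell: Nme1 and Nme2, which make nucleoside triphosphates, by 1.24 ± 0.17 and 0.84 ± 0.10, Prps1 by 0.79 ± 0.10 and Adssl1 by 0.63 ± 0.03. A second probe set of Nme1 changed by -0.07, and Nme1 and Nme2 are near-identical neighbours whose probes may share signal. Of 8 pyrimidine genes 2 fell, Uck2 by 0.86 ± 0.21 and Ctps by 0.43 ± 0.18. In the family 9 of the 11 falls kept their call without the doxycycline pair, 8 without the mutant pair and 10 with the spike-in scaling.

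The 5 polyamine genes tested did not share a direction. Odc1, the enzyme that starts the pathway, read 318.9, 181.0 and 309.8 at 0 h and 240.1, 139.7 and 192.0 at 24 h and fell by 0.49 ± 0.17 (adjusted p = 0.0314). Sat1, which acetylates polyamines for export and breakdown, read 1626.3, 1229.2 and 1150.5 and then 2268.9, 1332.4 and 1679.0, a rise of 0.38 ± 0.23 (adjusted p = 0.046). In both genes the groups overlapped, since treatments differed in level. Srm (-0.47, adjusted p = 0.115), Azin1 (-0.34, adjusted p = 0.104) and Oaz2 (0.32, adjusted p = 0.0758) did not pass the test. The calls of Odc1 and Sat1 were both lost without the mutant pair. Odc1 was also lost without the doxycycline pair, and Sat1 without the wild-type pair and with the spike-in scaling.

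Among mitochondrial genes a larger share fell in import and chaperones than in the mitochondrial ribosome, but the firm falls named here were ribosomal. There 8 of 22 tested genes fell (36.36%), against 6 of 53 (11.32%) in the mitochondrial ribosome and translation group and 9.33% of all genes. Of 75 genes of import, chaperones and mitochondrial ribosomes 14 fell and 0 rose, with a median of -0.22, and 47 of the 75 were lower in all 3 treatments. Mrpl12 read 305.4, 240.6 and 282.7 at 0 h and 160.1, 129.4 and 182.7 at 24 h, and fell by 0.82 ± 0.16 (adjusted p = 0.0035). Mrps25 fell by 0.93 ± 0.26 and Mrpl51 by 0.64 ± 0.17, while the second probe set of Mrps25 changed by -0.22. The chaperonin Hspd1 fell by 0.66 ± 0.24. Of the 14 falls 7 kept the call without the doxycycline pair, 5 without the mutant pair and 10 with the spike-in scaling. In all, 4 were firm, among them Mrpl12, Mrps25 and Mrpl51. The largest falls of import and chaperones, those of Timm8a1, Hspd1, Lonp1 and Timm22, were not firm. Of 56 genes of the citrate cycle, fatty acid oxidation and peroxisomes 4 fell and 2 rose, with a median of -0.10, shares below those of all genes. Scp2, a peroxisomal and lipid transfer protein, rose by 0.81 ± 0.08 (adjusted p = 0.000697), from 650.8, 510.3 and 540.5 to 1197.2, 842.3 and 957.3. Its second probe set changed by 0.41, and the groups did not overlap.

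**Figure D2:**
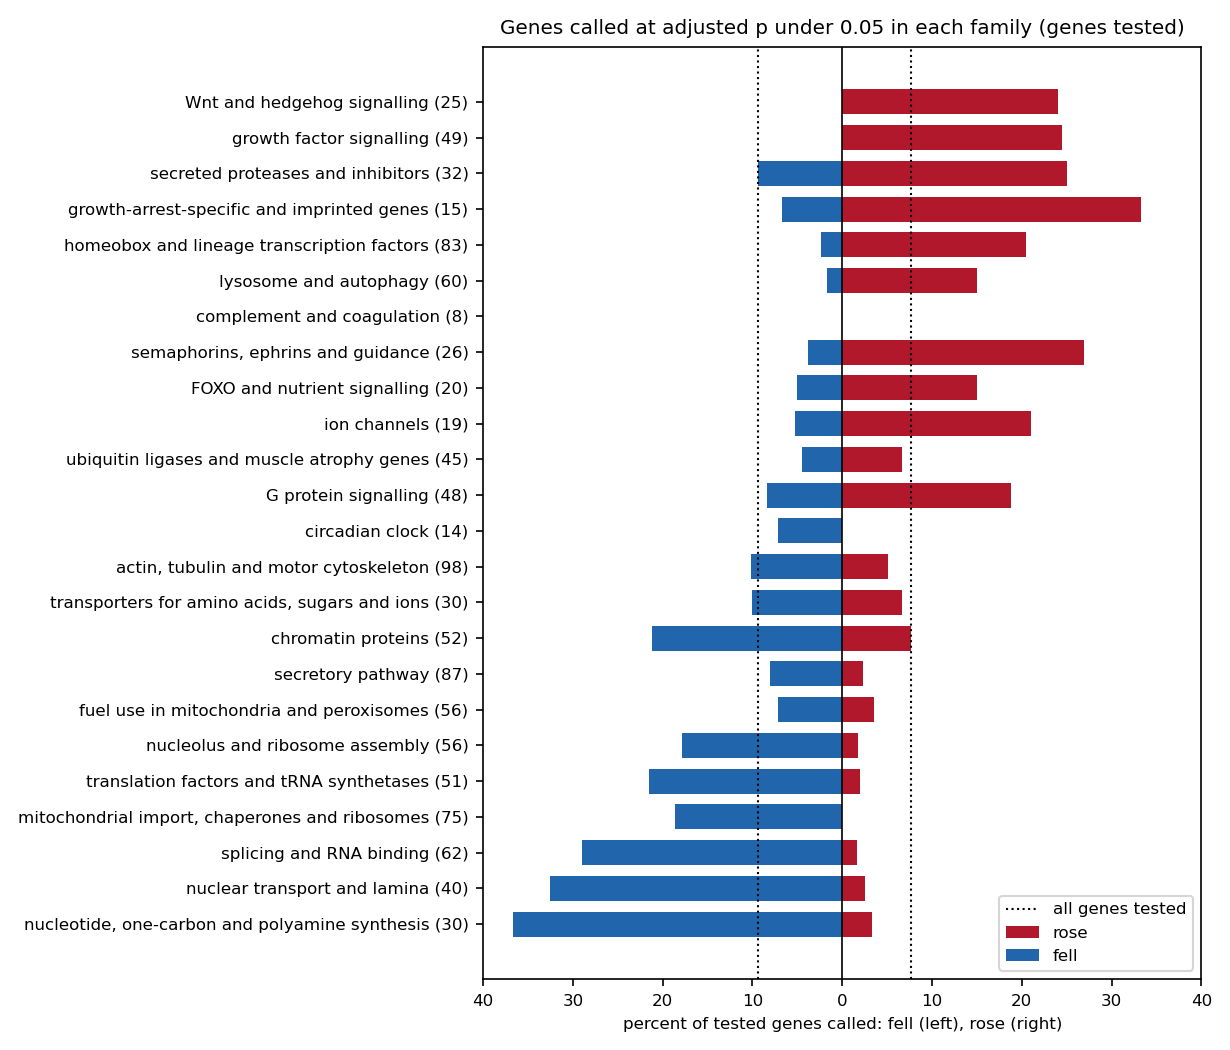
Percent of the tested genes of each of 24 families that fell (bars to the left) or rose (bars to the right) at a limma adjusted p under 0.05, families ordered by median change, with the number tested in parentheses. Dotted lines mark 9.33% falls and 7.67% rises over all 4822 genes, and the 6 families at the bottom pass the left line and hold 0 or 1 rise each.

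Lysosome and autophagy genes were more often called as rises than as falls. Of 60 tested, 9 rose (15%) and 1 fell (1.67%), against 7.67% and 9.33% of all genes, and the median change was 0.13. By treatment the median was 0.01 in the wild-type pair and 0.15 in each of the doxycycline and mutant pairs. Map1lc3a, an LC3 protein of the autophagosome membrane, read 409.9, 425.3 and 446.5 at 0 h and 1102.1, 1024.5 and 1109.1 at 24 h, a rise of 1.34 ± 0.08 (adjusted p = 5.15e-05). Within each time the arrays were close together and the times were far apart. Of the 14 autophagy genes 4 rose (28.6%) and 0 fell. Besides Map1lc3a, Gabarapl1, of the same ubiquitin-like family, rose by 0.53 ± 0.08. Becn1, which starts autophagosome formation, rose by 0.38 ± 0.19 and Map1lc3b by 0.36 ± 0.17. Among 26 lysosomal proteases and hydrolases 2 rose (7.69%, near the share over all genes) and 1 fell. Of 20 membrane and proton pump genes 3 rose (15%) and 0 fell, with a median of 0.005. The rises among lysosomal genes were small, with the hexosaminidase Hexa at 0.44 ± 0.24, the proton pump subunit Atp6v1e1 at 0.43 ± 0.19 and the membrane protein Lamp2 at 0.32 ± 0.02, while the cathepsin Ctsz fell by 0.41 ± 0.13. Of the 9 rises, 4 kept their call without the doxycycline pair and 2 without the mutant pair, and Map1lc3a alone kept it with the spike-in scaling, where the median of the family was 0.01 against -0.12 for all genes.

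Growth factor receptors were among the families with rises and no falls. In growth factor signalling 12 of 49 genes rose (24.5%) and 0 fell, against 7.67% and 9.33% of all genes, with a median of 0.22. The receptor group held 8 of them among 19 tested, with a median of 0.35, and 12 of the 19 were higher in all 3 treatments. Ghr, the growth hormone receptor, read 259.9, 210.4 and 240.9 at 0 h and 529.2, 462.4 and 493.3 at 24 h, a rise of 1.06 ± 0.06 (adjusted p = 0.000297). Lifr, the receptor for leukaemia inhibitory factor, went from 441.3, 292.2 and 321.2 to 844.9, 557.9 and 685.2, a rise of 0.99 ± 0.09 (adjusted p = 0.000319). In both genes the order of the treatments was the same at both times and the groups did not overlap. Ptprd, a receptor tyrosine phosphatase, rose by 0.83 ± 0.12 and Egfr, the receptor for epidermal growth factor, by 0.82 ± 0.11. A second probe set of Egfr changed by 0.005, so its rise rests on 1 of 2. Ligands changed less: of 18 tested 2 rose (11.1%), Ccn4 by 0.59 ± 0.24 and Angpt1 by 0.54 ± 0.07. Among 12 feedback inhibitors Dusp1, a phosphatase of MAP kinases, rose by 0.70 ± 0.34 and Rasa3 by 0.31 ± 0.07. Of the 12 rises 6 kept the call without the doxycycline pair, 5 without the mutant pair and 4, the receptors Ghr, Lifr, Ptprd and Egfr, with the spike-in scaling.

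**Figure D3:**
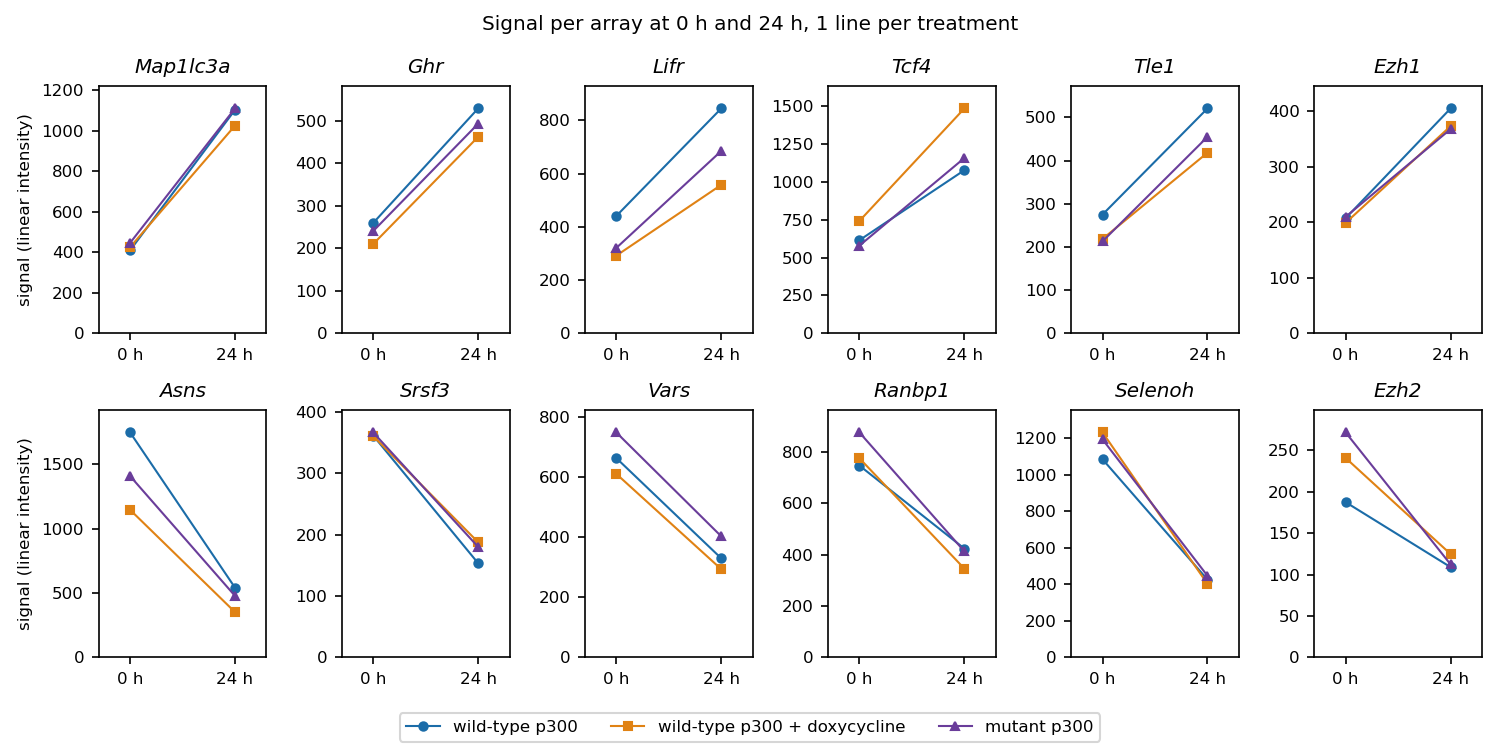
Signal (linear intensity, y axis from 0) at 0 h and 24 h for 12 genes, 1 line for each treatment. In the top row Map1lc3a, Ghr, Lifr, Tcf4, Tle1 and Ezh1 rise in each treatment, and in the bottom row Asns, Srsf3, Vars, Ranbp1, Selenoh and Ezh2 fall in each, with no 24 h point inside the 0 h range.

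Wnt and hedgehog genes had the highest family median, 0.24, with 6 of 25 risen (24%) and 0 fallen, against 7.67% and 9.33% of all genes. Tle1, a corepressor of TCF factors, read 275.2, 218.7 and 213.2 at 0 h and 520.6, 418.2 and 454.9 at 24 h, a rise of 0.98 ± 0.10 (adjusted p = 0.000552). The wild-type arrays were brightest at both times. Tcf7l1, a TCF factor that can repress Wnt targets, rose by 0.65 ± 0.10. Of the receptors, Fzd1 rose by 0.75 ± 0.29, Fzd2 by 0.55 ± 0.24 and the coreceptor Lrp6 by 0.69 ± 0.38, and Gas1, which binds hedgehog proteins, rose by 0.61 ± 0.26. Of the 6 rises, 2 kept their call without the doxycycline pair, 3 without the mutant pair and 2 with the spike-in scaling. The family's median with that scaling was 0.11.

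Of 83 homeobox and other lineage transcription factors 17 rose (20.5%) and 2 fell (2.41%), or 2 and 3 with the spike-in scaling, with a median of 0.15. Over all genes 7.67% rose and 9.33% fell. Tcf4, a partner of myogenic basic helix-loop-helix proteins, read 614.3, 741.3 and 578.5 at 0 h and 1075.2, 1481.8 and 1155.2 at 24 h, a rise of 0.93 ± 0.11 (adjusted p = 0.000335). All 24 h values were above the highest 0 h value, and the doxycycline array was brightest at both times. Runx1 rose by 0.79 ± 0.25, the thyroid hormone receptor gene Thra by 0.68 ± 0.22 (second probe set 0.27), the repressor Zeb1 by 0.61 ± 0.16 and Sox4 by 0.58 ± 0.14. Besides Mxd3, Klf10 fell, by 0.70 ± 0.17. Of the 17 rises 9 kept the call without the doxycycline pair, 5 without the mutant pair, and 2, Tcf4 and Runx1, with the spike-in scaling, where the family's median was 0.02.

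Ezh1 and Ezh2, paralogs among the chromatin genes, moved in opposite directions. Of 52 chromatin genes 11 fell (21.2%) and 4 rose (7.69%), against 9.33% and 7.67% of all genes. Of the 43 in no cell cycle list 5 fell (11.6%) and 4 rose (9.30%). Over all genes outside the muscle and cell cycle lists 7.4% fell and 7.36% rose. Ezh2, H2az1, Hmgb2 and Hmgb3, named below, are on the cell cycle list. Ezh1, a histone H3 lysine methyltransferase of Polycomb complexes, read 207.8, 199.3 and 210.2 at 0 h and 405.4, 373.5 and 368.2 at 24 h, a rise of 0.89 ± 0.08 (adjusted p = 0.00112). Its paralog Ezh2 read 187.5, 240.9 and 271.7 and then 109.1, 124.9 and 112.4, and fell by 1.001 ± 0.25 (adjusted p = 0.00303). Each separated the times without overlap, in opposite senses, and both calls were firm. H1f2, a linker histone, rose by 0.62 ± 0.14, while the histone variant H2az1 fell by 1.76 ± 0.23 and the high-mobility group genes Hmgb2 and Hmgb3 fell by 2.99 ± 0.11 and 1.06 ± 0.05. Hmgb2 was under the floor in the wild-type array at 24 h (7.1), which bounds its fall. The call of H1f2 was lost with the spike-in scaling (limma adjusted p = 0.107). Of the family's 4 rises 2 kept their call without the doxycycline pair, 2 without the mutant pair and 1 with the spike-in scaling, and of its 11 falls 7, 6 and 9.

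Other families at the cell surface are G protein signalling, guidance and ion channels. Over all genes 7.67% rose and 9.33% fell. Of 48 G protein signalling genes 9 rose (18.8%) and 4 fell (8.33%), with a median of 0.06, or -0.06 with the spike-in scaling. Rgs2, which shortens Gq signals, rose by 0.93 ± 0.14 (adjusted p = 0.0012), from 145.7, 286.7 and 163.9 to 301.1, 492.2 and 320.4, and it was the only 1 of the 9 rises to keep its call with that scaling. Of 26 semaphorin, ephrin and other guidance genes 7 rose (26.9%) and 1 fell (3.85%). Their median was 0.09, or -0.03 with the spike-in scaling, where 2 of the 7, Sema3c and Ephb6, were still called. Ephb6, a kinase-dead ephrin receptor, rose by 0.95 ± 0.08, but its second probe set changed by -0.12. Of 19 ion channel genes 4 rose (21.1%) and 1 fell (5.26%), with a median of 0.07, or -0.05 with the spike-in scaling. Clcn5, an endosomal chloride transporter, rose by 0.75 ± 0.25. Of the rises in G protein, guidance and channel genes, 4, 3 and 1 kept their call without the doxycycline pair, and 2 in each family without the mutant pair. Rgs2, Ephb6 and Clcn5 kept theirs in all of these refits. Without the treatment block the call of Rgs2 was lost (limma adjusted p = 0.0702).

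Among 32 genes of secreted proteases and their inhibitors 8 rose (25%) and 3 fell (9.38%), with a median of 0.19. Over all genes 7.67% rose and 9.33% fell. Of the 19 proteases 6 rose and 1 fell, and of the 13 inhibitors 2 rose and 2 fell. Cpe, which trims prohormones, read 2416.5, 2043.0 and 1818.7 at 0 h and 3374.6, 3317.0 and 2936.7 at 24 h, a rise of 0.62 ± 0.12 (adjusted p = 0.0035). Mmp14, a membrane-bound matrix metalloproteinase, rose by 0.62 ± 0.19 and Timp2, an inhibitor that also takes part in proMMP2 activation, by 0.53 ± 0.17. The cysteine protease inhibitor Cst3 rose by 0.49 ± 0.03, while Cstb, the intracellular cystatin, fell by 0.40 ± 0.10, Serpinb6a fell by 0.57 ± 0.18 and Plaur, the urokinase receptor, by 0.56 ± 0.09. Without the mutant pair and without the doxycycline pair 5 of the 8 rises kept their call, and 2 with the spike-in scaling. The calls of Mmp14 (limma adjusted p = 0.0896), Timp2 (0.193) and Cst3 (0.0847) were lost with that scaling. Without the doxycycline pair 0 of the 3 falls kept their call (limma adjusted p = 0.145 for Cstb, 0.0796 for Serpinb6a and 0.0567 for Plaur) and that of Cst3 was lost too (0.072). Of 8 complement and coagulation genes 0 were called by limma, and 1 had an unadjusted p under 0.05.

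Of 98 cytoskeleton genes 5 rose and 10 fell, with a median of 0.03, or -0.10 with the spike-in scaling. The shares, 5.10% and 10.2%, were below and near the 7.67% and 9.33% over all genes. Without muscle and cell cycle genes 3 of 91 rose and 6 fell (3.30% and 6.59%). Both shares were below those of all genes outside these lists, 7.36% and 7.4%, so the family as a whole did not stand out. Stmn1, and Tubg1 below, are on the cell cycle list. Stmn1, which destabilises microtubules, fell by 2.51 ± 0.38 (adjusted p = 2.22e-05), from 1518.1, 1632.6 and 1742.4 to 200.1, 305.2 and 382.8. The tubulins Tubb3, Tubb6 and Tubg1 fell by 0.94 ± 0.28, 0.89 ± 0.25 and 0.93 ± 0.34. The actin-binding proteins Tagln2 and Pfn2 moved apart, the first falling by 0.95 ± 0.22 and the second rising by 0.92 ± 0.15. All 6 of these calls were firm, but without the treatment block those of Tubg1 (limma adjusted p = 0.136) and Pfn2 (0.0509) were lost.

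Growth-arrest-specific (Gas) genes were named for their induction when fibroblasts stop dividing. The list used here also held genes without that name, among them Ddit3, Dab2, Prrx1, Pdgfra and Cavin2, and its members did not rise together. Of 9 tested, Gas1 rose by 0.61 ± 0.26 from 1536.5, 1770.4 and 1341.6 to 1933.7, 2775.3 and 2404.2, and its call was lost without the doxycycline pair. Gas2, a microfilament protein, fell by 0.62 ± 0.40 from 228.0, 198.4 and 207.0 to 201.7, 119.2 and 107.1, and its call was lost without the doxycycline or the mutant pair. The other 7 did not pass the test, among them Gas5 at -0.01, Ddit3 at -0.03, Dab2 at -0.07 and Prrx1 at 0.44. Cavin2 had a mean change of 0.86 but went from 110.0 to 94.8 with wild-type p300, against 112.8 to 239.3 and 72.8 to 237.7 with doxycycline and mutant p300. Of 6 imprinted genes 4 rose (66.7%, against 7.67% of all genes) and 0 fell, with a median of 0.51. Besides Dcn and Igf2 these were Peg3, a zinc finger protein, by 0.55 ± 0.21 (lost without the doxycycline pair and with the spike-in scaling) and Sgce, a sarcoglycan, by 0.48 ± 0.18 (lost without the doxycycline pair, without the mutant pair and with the spike-in scaling). Dlk1 at -0.04 and Gnas at 0.15 did not pass.

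The clock genes, tested because a medium change can reset rhythms in cultured cells, were nearly all uncalled. Of 14, 1 fell (7.14%, against 9.33% of all genes) and 0 rose, with a median of 0.04, or -0.09 with the spike-in scaling. Per1 read 145.5, 169.8 and 179.4 at 0 h and 105.6, 114.4 and 130.9 at 24 h and fell by 0.50 ± 0.06 (adjusted p = 0.0496), a call lost when any 1 pair was left out. The groups did not overlap. Timeless, also on the cell cycle list, changed by -0.41, Nr1d1 by -0.35 and Nr1d2 by 0.34, and Clock, Per3, Tef, Arntl, Nfil3, Csnk1d, Csnk1e, Bhlhe40, Cry1 and Rora lay between -0.18 and 0.15, with no call.

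The last 4 families are the secretory pathway, transporters, the ubiquitin system, and FOXO and nutrient signalling, where 7.67% rises and 9.33% falls are again the shares over all genes. Of 87 secretory pathway genes 7 fell and 2 rose, with a median of -0.04. Of 30 transporter genes 3 fell and 2 rose, with a median of 0.00, or -0.12 with the spike-in scaling. Slc7a5, the large neutral amino acid transporter, fell by 0.90 ± 0.30 (adjusted p = 0.00217), from 763.2, 594.1 and 743.8 to 320.1, 359.1 and 447.0, and its call was firm. Among 45 genes of the ubiquitin system 3 rose and 2 fell (median 0.06, or -0.06 with the spike-in scaling), with Ube2h at 0.49 ± 0.13. Of 20 genes of FOXO and nutrient signalling 3 rose and 1 fell (median 0.08, or -0.04 with that scaling), in which Sesn1 rose by 0.69 ± 0.10 and Ccng2 by 0.48 ± 0.13, while Ddit4, an inhibitor of mTORC1, fell by 0.39 ± 0.21. Ccng2 is also on the cell cycle list. The calls of Ccng2 and Ddit4 were lost without the doxycycline pair (limma adjusted p = 0.0812 and 0.176), without the mutant pair (0.0653 and 0.254) and with the spike-in scaling (0.327 and 0.113), and that of Sesn1 with the spike-in scaling (0.0679). Without the doxycycline pair and without the mutant pair, 1 and 1 of the 7 secretory falls, 2 and 1 of the 3 transporter falls, 1 and 0 of the 3 ubiquitin rises and 2 and 2 of the 3 rises in FOXO and nutrient signalling kept their call.

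**Figure D4:**
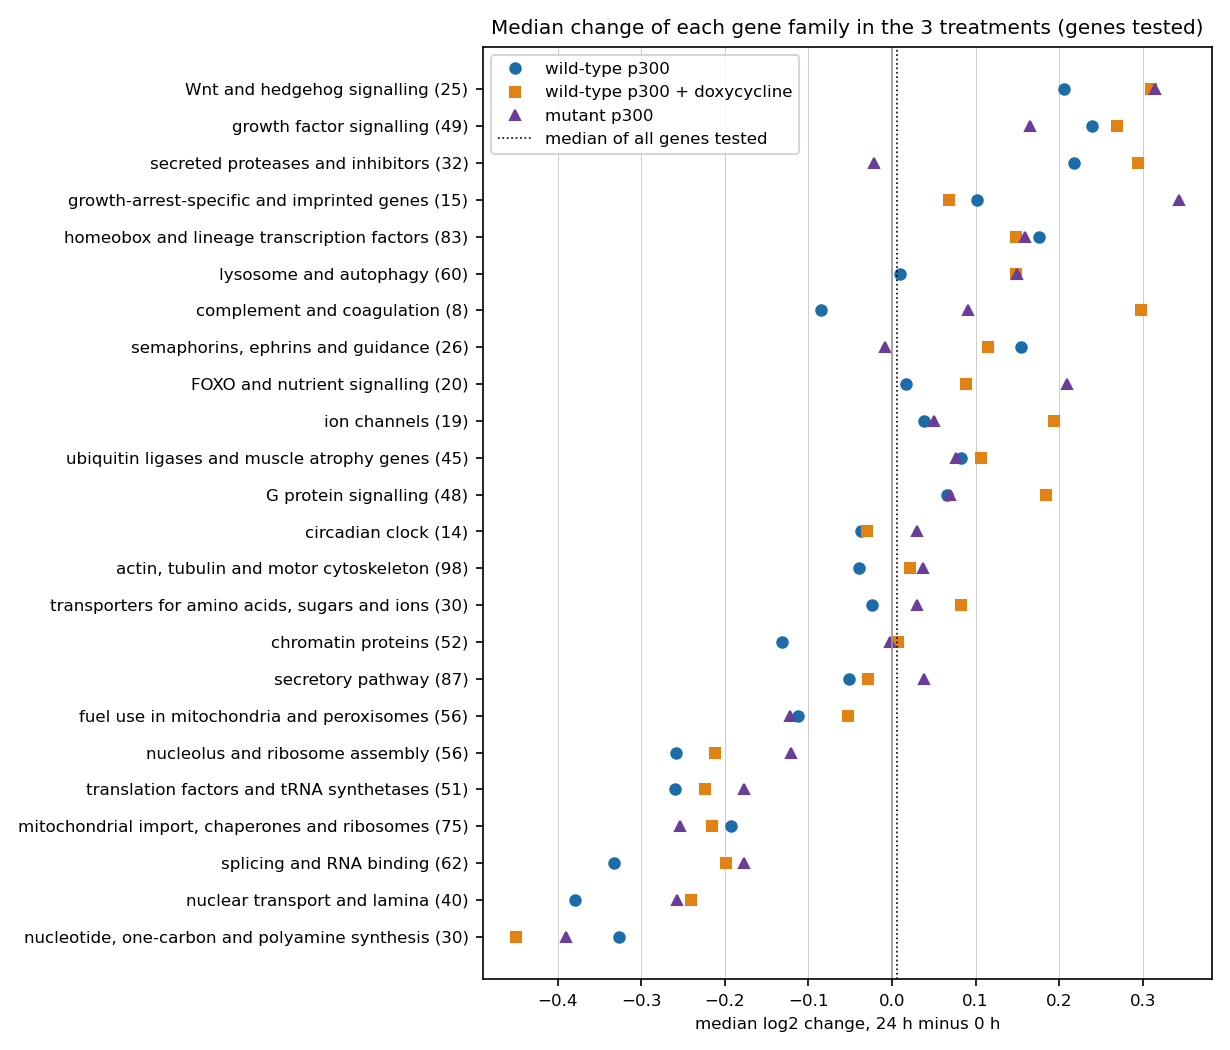
Median log2 change from 0 h to 24 h (x axis) of each of 24 families, 1 point for each treatment, with the number of genes tested in parentheses and a dotted line at the median of all 4822 genes. The 6 lowest families lie at -0.12 or below in every treatment, and the points of complement and coagulation (8 genes) spread from -0.09 to 0.30.

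A second grouping was made without regard to function, by the letters that gene symbols share. It gave 97 families with at least 6 tested genes. Over all genes 9.33% fell and 7.67% rose. The lowest medians were those of Mcm (-1.44, 5 of 6 fell), Nup (-0.50, 2 of 6), Srsf (-0.32, 3 of 9), Cct (-0.32, 3 of 7), Lsm (-0.31, 3 of 8), Timm (-0.31, 3 of 9), Kif (-0.30, 7 of 14, with 1 rise) and Nop (-0.30, 2 of 6). They are the replication helicase, nucleoporins, SR splicing factors, subunits of the cytosolic chaperonin, Sm-like proteins, inner membrane translocases, kinesins and nucleolar proteins. The highest were Tcf (0.43, 3 of 7 rose and 1 fell), Fzd (0.35, 2 of 6 rose), Ptpn (0.29, 1 of 6 rose and 1 fell), Col (0.28, 4 of 16 rose), Zfp (0.26, 6 of 44 rose and 0 fell), Pex (0.24, 1 of 8), Tbc (0.20, 1 of 8) and Dnajb (0.19, 1 of 7). The Zfp stem, zinc finger proteins, was the largest of these, while the Pex median turned to -0.07 with a stricter signal filter.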

How the data were processed

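The authors' deposited values are Affymetrix MAS5 signals, linear intensities per probe set scaled to a common trimmed mean (200.11 to 200.12 on the 6 arrays), per the submitters' processing notes and the values themselves; no step beyond MAS5 is given in the sources used here. Of 12488 probe sets, 66 controls were set aside; of the other 12422, 10833 had 1 gene symbol, 396 several and 1193 none. Signals were floored at 16.4 (25th percentile) and turned to log2, and probe sets with a mean signal of 75.2 or more were kept (6212). Probe sets with the suffix _f_at, those of Klk1b22, Srsf3, Nme1 and Mrps25 among them, can match several related genes. The time effect was fitted with limma 3.58.1 in R 4.3.3, with treatment as a block and a variance trend, on 2 residual degrees of freedom, with Benjamini-Hochberg adjustment over the 6212 probe sets. The fit was tested on simulated data. Depth has no meaning for arrays; the number of arrays limits precision.

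Genes named were the 20 largest rises and 20 largest falls outside the muscle and cell cycle lists, the leading called genes of each family subgroup, and all tested polyamine, growth-arrest-specific, imprinted and clock genes; exceptions are marked. The members, the 24 gene lists and the refits were chosen with earlier results of these data known. Promoter windows came from RefSeq (GRCm38.p6). Alternatives changed the floor, filter, scaling, block, variance trend, probe set choice and the pairs included.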

Additional observations from a re-analysis of the deposited data

Results flagged for a closer look

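In 10 named genes and 10 gene groups the wild-type pair changed in the opposite direction to both other pairs. Each treatment has 1 pair of arrays, so none of these differences was tested. Values are the log2 change in the wild-type pair minus the mean of the doxycycline and mutant pairs.

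Cavin2, a caveolar coat protein, stood furthest apart, at -1.611: it changed by -0.215 with wild-type p300 and by 1.085 and 1.707 with doxycycline and mutant p300. Pdgfra, a platelet-derived growth factor receptor, stood at 0.834, with changes of 0.573, -0.305 and -0.217. The clock factor Arntl stood at 0.58, with changes of 0.314, -0.028 and -0.502, and 3 other clock genes at -0.345 (Cry1), -0.252 (Csnk1e) and -0.228 (Bhlhe40). Azin1, an inhibitor of the antizyme that restrains polyamine synthesis, stood at 0.559, the myelin protein gene Pmp22 at 0.393, the complement inhibitor Cd59a at -0.528 and Gnas, a G protein subunit, at -0.277. None of these 10 genes passed the test for a change with time.

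Among medians of gene groups, inhibitors of secreted proteases stood at 0.426 and polyamine genes at 0.237. Transporters of glucose, lactate and nucleosides stood at -0.411, complement and coagulation at -0.28 and lysosomal proteases and hydrolases at -0.247. The other 5 lay close to 0: ion pumps and exchangers at -0.1, all transporters at -0.08, actin regulators at -0.075, vesicle coats and Golgi at -0.073 and the whole cytoskeleton list at -0.069.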

How the results depend on the processing

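The main fit called 1009 probe sets (450 rose, 559 fell). Leaving out 1 pair gave 470 to 1275 calls, 178 to 606 rises and 292 to 669 falls, lowest without the mutant pair and highest without the wild-type pair. The prior degrees of freedom of limma were 6.25 without the mutant pair and 29.4 without the wild-type pair, against 6.26 in the main fit. The cause of the difference in calls was not tested. Scaling to the spike-in controls gave 619 calls with 141 rises, on a scale where the median change of all probe sets was -0.12 in place of 0.005. Without the treatment block there were 514 calls (205 rose, 309 fell), and the cause was not tested. Without the filter limma called 0 (0 rose, 0 fell; 2030 at an unadjusted p under 0.05), and 0 also without filter and variance trend together (2123 unadjusted), a setting added after the data were seen; 1915 probe sets at the floor on all arrays then enter with no variance. With only those left out, also added later, 628 were called (266 rose, 362 fell). The other alternatives stayed within 1.5 times these counts. No named gene changed sign while called. Of the 24 family medians, 21 moved by more than the spread between treatments with the spike-in scaling and 11 with the stricter filter. Arrays were the limit throughout: genes under the filter, Myc among them, were not tested, and values under the floor give bounds. The main fit is itself the paired analysis, with treatment as the block.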
